A study of Mus musculus with 9 samples.

Results

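The 45 genes described here drive or execute mitosis, and were chosen by name as a list of cyclins, kinases, kinetochore proteins, motors, condensins and regulators of the anaphase-promoting complex. All 45 were on the array, of 37079 genes or transcript entries represented, and 44 were well above background on at least 2 of 9 arrays and entered the test. Cenpf, a kinetochore protein of late G2 and mitosis, was well above background only in the TCRβ-negative CD4SP cells and was not tested. RNA came from thymocytes of C57BL/6 mice sorted by surface CD4, CD8 and TCRβ, with 1 array per group. Every mouse carried Tie2-Cre, a Cre recombinase under a promoter known to be active in endothelial and blood-forming cells, so deletion is not restricted to thymocytes. Control mice were Brd1+/+, Tie2-Cre and knockout mice were Brd1flox/flox, Tie2-Cre, called CKO below. At 8 weeks of age both genotypes gave DP cells (CD4 and CD8 both on the surface), CD4SP cells (CD4 alone) and CD8SP cells (CD8 alone), and the CKO also gave CD4SP cells without surface TCRβ, for which no control is analysed here. At 14 weeks of age both genotypes gave CD8SP cells from mice that also carried OT-I, a transgene whose T cell receptor sees an ovalbumin peptide on MHC class I. The number of mice behind each array is not given in the sources used here.

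In a dividing cell, cyclin B and Cdk1 start mitosis, condensins and topoisomerase II fold and untangle the chromosomes, and kinetochores tie each chromosome to the spindle. The spindle checkpoint holds back the anaphase-promoting complex (APC/C) until all chromosomes are attached, and centralspindlin, Ect2 and anillin then direct the division of the cell. Most of these genes are transcribed in G2 and M phase, in part through the MuvB and Foxm1 complexes that act at CHR elements, and through NF-Y at CCAAT boxes. In the thymus, division is concentrated in the immature stages and their early DP progeny, whereas small DP cells and newly selected single-positive cells are mostly quiescent. In sorted bulk cells, fewer dividing cells and less of each transcript per cell cannot be told apart.

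Levels are log2 signals relative to the 75th percentile of each array. Differences are log2 values too, with control subtracted from CKO unless another order is named. Where a sentence gives 2 levels for a population, the control comes first. Per array, 39.0% to 45.9% of 55537 probes were well above background. The DP pair, the CD4SP pair, the CD8SP control and the TCRβ-negative array were on slide 1, and the CD8SP CKO and the OT-I pair were on slide 2. In the CD8SP pair, slide and genotype therefore cannot be told apart. Brd1 was well above background on all 9 arrays, between -1.37 in the CD8SP control and -0.33 in the DP CKO. It was higher on the CKO array in each pair, by 0.46 for DP, 0.10 for CD4SP, 0.64 for CD8SP and 0.61 for OT-I CD8SP cells. Its fitted genotype difference, 0.45 (SE 0.19), was not called by limma (adjusted p = 0.475). The position of its probe relative to the floxed exons is not given in the files, so this level does not check the deletion. The sorted surface markers followed the labels in the main: Cd8a lay between 4.60 and 5.46 in the DP and CD8SP arrays against -1.22 and -2.11 in the CD4SP pair and -0.32 in TCRβ-negative CD4SP cells, and Cd4 at 3.14 to 3.50 in the 4 CD8SP arrays against 6.19 to 6.54 elsewhere.

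The 45 genes were high in the DP, CD8SP control, OT-I control and TCRβ-negative arrays, and low in CD4SP cells of both genotypes and in OT-I CD8SP cells of the CKO. Their median level was 3.49 for DP control and 3.38 for DP CKO, 4.19 in TCRβ-negative cells, 4.05 in the CD8SP control and 4.05 in the OT-I control. It was 2.78 in the CD8SP CKO, 1.54 in the CD4SP CKO, 1.44 in the CD4SP control and 1.18 in the OT-I CKO. The OT-I control was the highest of the 9 arrays for 27 genes, the TCRβ-negative array for 15 and the CD8SP control for 3. The same counts over all genes were not made, so these do not set the mitotic genes apart from other genes. The CD4SP pair and the OT-I CKO were the lowest 3 arrays for 40 of the 45, an arrangement found for 9.29% of the 20282 genes tested. Of the 40 genes well above background in the OT-I CKO, the CD4SP CKO or both, 30 were lower in the OT-I CKO and 10 higher. The median of this difference was small, -0.24, against 0.06 for all genes.

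**Figure D1:**
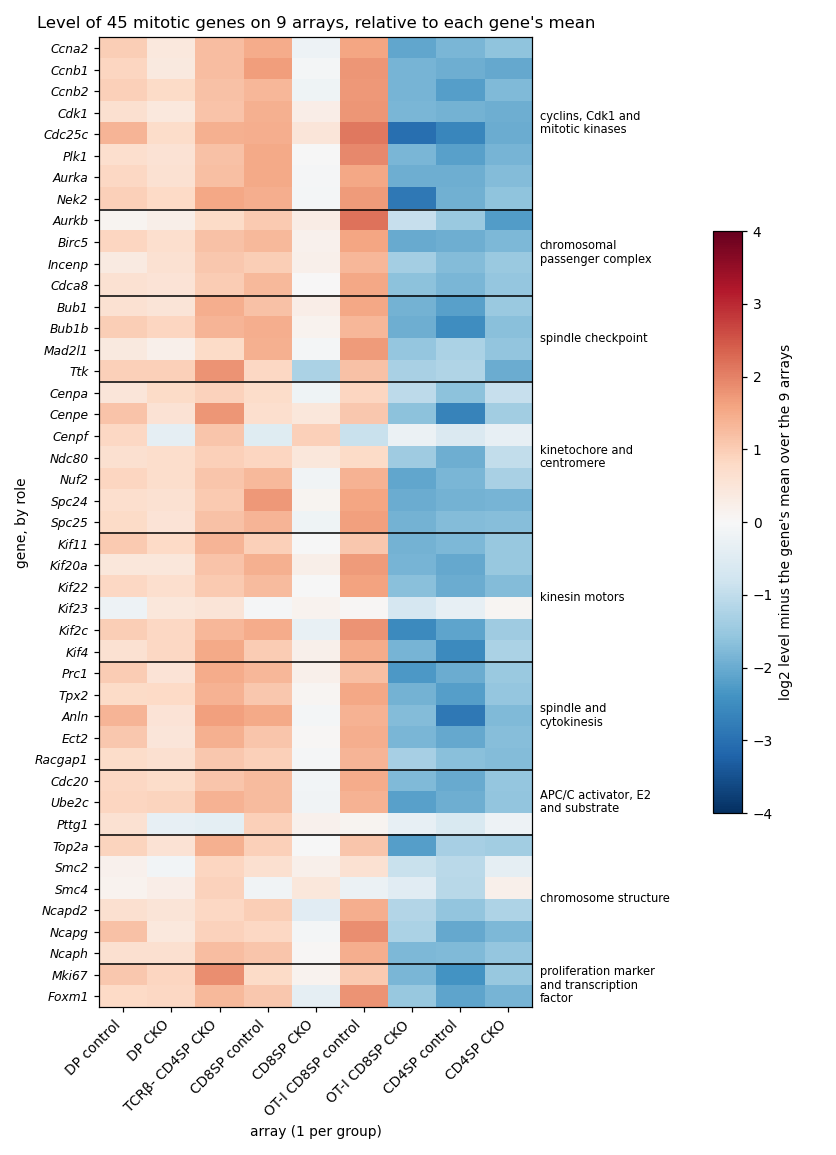
Level of each of the 45 genes (rows, ordered by role) on each of the 9 arrays (columns), as log2 level minus the mean of that gene over the 9 arrays; red is above and blue below the gene's own mean. The CD4SP pair and the OT-I CD8SP CKO form the low block; the rows of Kif23, Pttg1 and Smc4 vary least among the well detected genes, and Cenpf was well above background on 1 array only.

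Promoter sequences from RefSeq (GRCm38.p6, 250 bases before to 50 after the annotated start) were matched for 36 of the 45 genes, as 38 promoters. They are shown because most of the 45 genes were high and low on the same arrays. The CHR letters TTTGAA, searched on both strands, were in 27 of the 36 genes (75%), against 20.2% of the 27025 genes with a promoter in the table and 18.5% of its 17492 protein-coding genes. The letters CCAAT, searched on both strands and able to share at most 1 base with a CHR match, were in 28 of the 36 (77.8%), against 41.1% of all genes. Both motifs were in 24 (66.7%) against 7.97% of all genes, and at least 2 CCAAT matches were in 19 (52.8%) against 13.3%. Of 38 CHR matches, 27 began within 50 bases of the annotated start on either side; Ect2 and Prc1 have 2 overlapping promoters each, and with each genomic site counted once these were 25 of 35. The genes with the CHR letters had a median OT-I pair difference of -3.27 (26 of the 27 genes, as Cenpf could not be compared) and those without had -3.43 (9 genes), so the letters did not separate the genes by the size of this difference. The 4 printed below held the CHR letters and had the largest fitted genotype differences among such genes; each is printed 5′ to 3′ on the strand of its gene, with CHR and CCAAT matches of either strand in capitals, so that TTTGAA can appear as TTCAAA. They are Kif2c at chr4:117178723-117179022 (minus strand), Ttk at chr9:83834439-83834738 (plus strand), Spc25 at chr2:69206164-69206463 (minus strand) and Aurka at chr2:172370521-172370820 (minus strand).
Kif2c: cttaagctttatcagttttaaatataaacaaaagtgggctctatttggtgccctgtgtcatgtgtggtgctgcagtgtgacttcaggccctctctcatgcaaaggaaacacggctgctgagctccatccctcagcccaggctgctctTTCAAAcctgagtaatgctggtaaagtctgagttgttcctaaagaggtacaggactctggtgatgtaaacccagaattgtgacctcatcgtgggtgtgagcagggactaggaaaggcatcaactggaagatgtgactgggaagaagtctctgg
Ttk: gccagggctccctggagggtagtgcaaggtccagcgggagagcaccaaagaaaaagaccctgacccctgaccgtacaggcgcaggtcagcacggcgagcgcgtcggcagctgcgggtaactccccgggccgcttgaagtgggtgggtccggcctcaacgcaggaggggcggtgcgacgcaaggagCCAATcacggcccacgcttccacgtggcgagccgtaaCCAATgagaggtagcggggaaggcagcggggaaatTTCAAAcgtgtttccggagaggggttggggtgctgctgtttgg
Spc25: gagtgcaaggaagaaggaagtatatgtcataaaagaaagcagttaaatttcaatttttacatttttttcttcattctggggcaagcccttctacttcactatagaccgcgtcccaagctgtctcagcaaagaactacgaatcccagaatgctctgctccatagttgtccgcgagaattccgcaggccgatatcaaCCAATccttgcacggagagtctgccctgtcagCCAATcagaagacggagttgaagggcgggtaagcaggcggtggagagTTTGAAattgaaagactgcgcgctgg
Aurka: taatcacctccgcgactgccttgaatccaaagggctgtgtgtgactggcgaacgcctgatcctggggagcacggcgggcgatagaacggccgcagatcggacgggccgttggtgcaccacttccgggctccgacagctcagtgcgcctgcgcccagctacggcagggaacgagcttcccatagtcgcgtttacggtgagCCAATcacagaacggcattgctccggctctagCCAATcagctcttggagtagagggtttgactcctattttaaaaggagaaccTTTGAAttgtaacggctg
Ttk, Spc25 and Aurka each hold 2 CCAAT matches upstream of 1 CHR match that lies near the start, and Kif2c holds 1 CHR match and no CCAAT match in this window. A match describes letters and not a bound site.

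**Figure D2:**
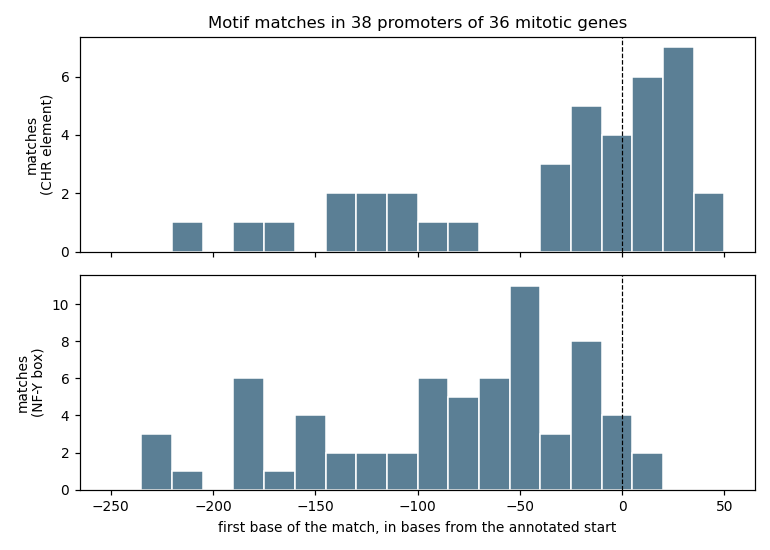
Number of motif matches (vertical axis) by the position of the first base of the match relative to the annotated start (horizontal axis, in bases; dashed line at the start), for the CHR element and the NF-Y box, over 38 promoters of 36 genes. Of the CHR matches, 27 of 38 begin within 50 bases of the start, or 25 of 35 with each genomic site counted once. The NF-Y box matches lie mostly upstream of the start. Positions of these letters in other promoters were not counted.

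The first comparison asks how the genes differ between thymocyte populations. All 44 tested genes were fitted lower in CD4SP than in DP cells with a median of -2.53, where the median of all genes was 0.00; limma called none of the 44 after Benjamini-Hochberg adjustment (smallest adjusted p = 0.107, for Ttk, which was not well above background on either CD4SP array). Of all genes, 2.16% were called higher and 0.922% lower in this contrast. An unadjusted p below 0.05 (limma) was found for 36 of the 44 and for 3595 of the 20282 genes tested. The single arrays gave the same order within each genotype. CD4SP minus DP had a median of -2.79 in the controls, with 41 of 44 genes lower by more than 2-fold and 0 higher (9.51% and 12.1% of all genes), and -2.23 in the CKO, with 39 of 43 lower and 0 higher (8.75% and 9.07% of all genes). Cdc25c, the phosphatase that activates Cdk1, had the lowest fitted value, -3.33 (SE 1.28), and was not well above background on either CD4SP array. Kif23, a motor of the central spindle, had the highest at -0.27 (SE 0.39).

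In these genes CD8SP cells lay near DP cells and above CD4SP cells. CD8SP minus DP was fitted at a median of -0.10, with none of the 44 called by limma (2.42% of all genes higher, 1.04% lower). An unadjusted p below 0.05 was found for 0 of the 44, against 4247 of the 20282 genes tested. This fitted value averages opposite single-array differences: the median was 0.43 between the controls, where 38 of the 45 genes were higher in CD8SP cells, and -0.60 between the CKO arrays. Past 2-fold, 2 of 44 genes were higher and 0 lower between the controls (18.2% and 9.46% of all genes), and 0 of 43 higher and 3 lower between the CKO arrays (9.33% and 7.8%). CD8SP minus CD4SP had a median of 2.37, with all 44 genes positive (43 with the percentile taken over probes detected on all arrays), none called (0.261% of all genes higher, 0.128% lower), 33 at an unadjusted p below 0.05 and a smallest adjusted p of 0.302 for Aurkb, which was not well above background on either CD4SP array or in the CD8SP CKO. Of the 20282 genes tested, 2692 had an unadjusted p below 0.05 in this contrast. With slide as a block, 3 of the 44 had an unadjusted p below 0.05 and none was called by limma. On single arrays, 39 of 43 genes were more than 2-fold higher in CD8SP than in CD4SP cells of the control (14% of all genes) and 35 of 41 in the CKO (6.66%), with 0 lower in either (8.89% and 4.61%).

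OT-I CD8SP minus polyclonal CD8SP had a fitted median of -0.80 and no calls (0.0394% of all genes higher, 0.197% lower). An unadjusted p below 0.05 (limma) was found for 0 of 44, against 1404 of the 20282 genes tested. By genotype the 2 values went opposite ways. In the controls the median was 0.29, with 2 of 44 genes more than 2-fold higher (3.29% of all genes) and 0 lower (5.27%). In the CKO it was -1.87, with 36 of 41 more than 2-fold lower (7.31% of all genes) and 0 higher (4.13%). The OT-I CKO array lay near the CD4SP CKO array, with a median difference of -0.24, 0 of 40 genes more than 2-fold higher (4.49% of all genes) and 1 lower (4.68%). Age differed with the OT-I transgene, 14 against 8 weeks, and the CD8SP control was on the other slide, so these cannot be told apart from the transgene.

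The CD4SP cells without surface TCRβ stood with the DP arrays and above them. Against CD4SP cells, all 44 genes were fitted higher (43 with quantile normalization) with a median of 3.62; none was called (0.232% of all genes higher, 1.17% lower), 41 had an unadjusted p below 0.05, and the smallest adjusted p was 0.081 for Ttk (limma), against CD4SP signals not well above background. Of the 20282 genes tested, 3392 had an unadjusted p below 0.05 in this contrast. Between the single CKO arrays, 41 of the 45 mitotic genes were more than 2-fold higher than in CD4SP cells and 0 lower (9.87% and 9.18% of all genes), with a median of 2.85. Against DP cells the fitted median was 1.09 with no calls (0% of all genes in either direction, 333 at an unadjusted p below 0.05 and none of them among the 44), and the difference of the CKO arrays was 0.58, with 3 of 45 more than 2-fold higher and 0 lower (1.44% and 1.87% of all genes). With no control of this population in the fit, the fitted values borrow the genotype effect from other populations, so the array differences within the CKO are the plainer measure. Pttg1 was the exception, at 4.51 in TCRβ-negative cells against 4.71 in CD4SP CKO and 4.56 in DP CKO.

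The second comparison asks how loss of Brd1 relates to these genes. Across populations, 42 of the 44 genes were fitted lower in the CKO and the median genotype difference was -1.12, against -0.04 for all genes. None was called higher or lower by limma after Benjamini-Hochberg adjustment (adjusted p 0.375 to 0.868), where 0.0394% of all genes were called higher and 0.242% lower. Of the 44, only Ttk and Ccnb1 had an unadjusted p below 0.05, against 2216 of the 20282 genes tested. The range ran from -1.53 for Cdc25c (SE 0.90), a value that rests partly on signals not well above background in the CD4SP pair and the OT-I CKO, to 0.45 for Smc4 (SE 0.30), and Kif23 was the other positive value at 0.12 (SE 0.27). The error of this fit is the spread of the genotype difference between 4 populations, and that spread was wide. The median was -1.02 with slide as a block. On slide 1 alone, which holds the DP and CD4SP pairs, it was 0.12, and without the OT-I pair it was -0.38, so the size and, on slide 1, the direction rest on the CD8SP arrays.

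The 4 pairs differed in direction and size. In the DP pair the median was -0.14 (all genes 0.15), or -0.36 with the percentile taken over probes detected on all arrays (all genes -0.07) and -0.35 with quantile normalization (all genes 0.03), and 0 of 44 genes were past a 2-fold difference in either direction, where 3.89% of all genes were higher and 5.3% lower. In the CD4SP pair it was 0.37 (all genes -0.01), with 4 of 40 higher by more than 2-fold (3.46% of all genes) and 0 lower (5.25%). In the CD8SP pair it was -1.13 (all genes -0.12), with 26 of 43 lower by more than 2-fold (9.21% of all genes) and 0 higher (6.73%). In the OT-I pair it was -3.29 (all genes -0.09), with 40 of 44 lower by more than 2-fold (13.8% of all genes) and 0 higher (8.45%). All 44 genes were negative in the OT-I pair, except that Smc4 was positive with quantile normalization and with the detected-probe percentile, and 41 of them lay below the 10th percentile of all genes compared, which was -1.40. A pair has 1 array per genotype, so none of these differences has a replicate error.

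**Figure D3:**
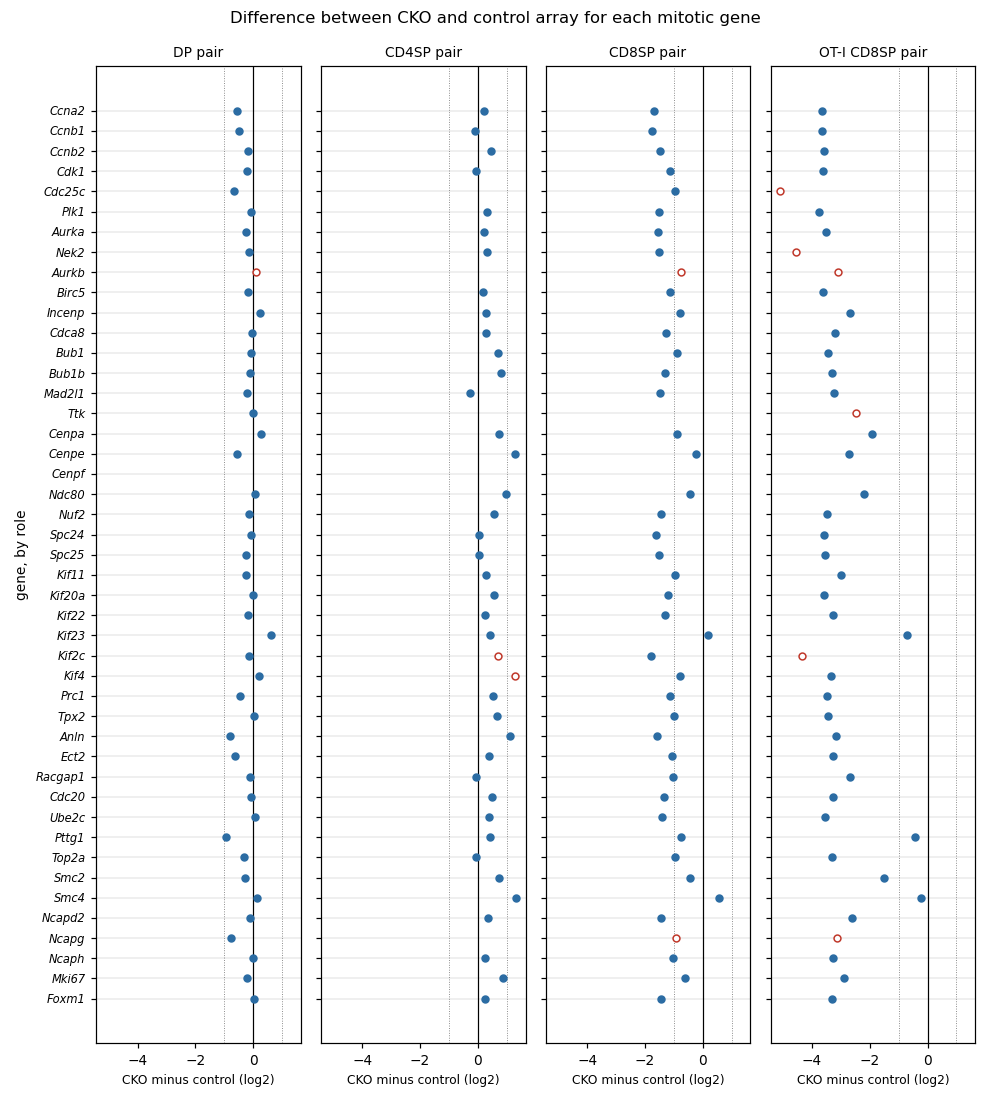
Difference between the CKO and the control array (log2, horizontal axis; dotted lines at a 2-fold difference) for each gene (vertical axis, ordered by role) in the 4 pairs. Filled points were well above background on both arrays, open red points on 1 of them, and genes not well above background on either are not drawn. Points lie around 0 in the DP pair, mostly right of it in the CD4SP pair, and left of it in the CD8SP and OT-I pairs.

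**Figure D4:**
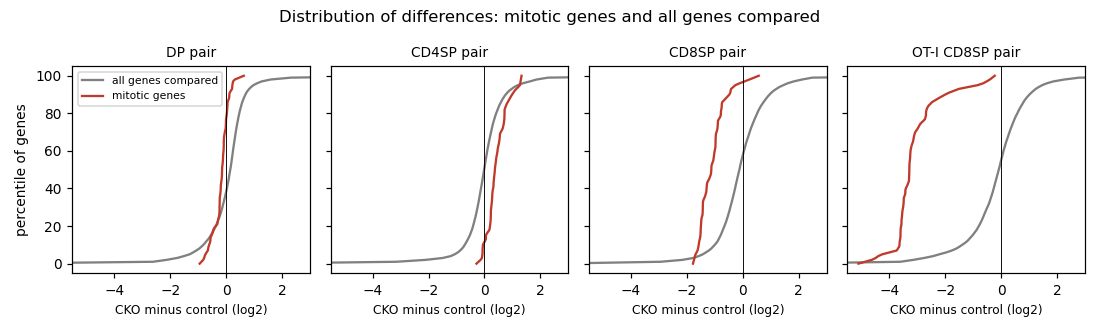
Cumulative distribution of the CKO minus control difference (log2, horizontal axis; percentile of genes, vertical axis) for the mitotic genes (red) and all genes compared (grey) in each pair. The red curve lies far to the left of the grey in the OT-I pair (median -3.29 against -0.09) and to the right in the CD4SP pair (median 0.37 against -0.01).

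Whether the difference in CD8SP classes (CD8SP and OT-I) departed from that in DP and CD4SP cells was tested as an interaction on 8 arrays. All 44 genes had a negative interaction (43 with quantile normalization) with a median of -2.35, against -0.13 for all genes. No gene of the 44 or of the 20045 tested was called by limma (0% in either direction; adjusted p 0.309 to 0.799 for the 44), while 32 of the 44 and 3069 of all genes had an unadjusted p below 0.05. The 32 were 19 with the percentile taken over probes detected on all arrays (3060 of all genes) and 9 with quantile normalization (2704 of all genes). Kif2c had the lowest value, -3.34 (SE 0.92), partly from signals not well above background in the CD4SP control and the OT-I CKO, and Pttg1 the highest, -0.33 (SE 0.55). With 2 residual degrees of freedom this test has little precision. It was chosen with earlier results of these data known, so its unadjusted p-values are not independent support. In the CD8SP pair, which enters it, slide and genotype cannot be told apart.

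Thymocyte stage markers differed between the same arrays as the mitotic genes. The summed linear level of 12 DP-stage markers, all 12 well above background on at least 8 arrays, was 1060 in the CD8SP control and 617 in the CD8SP CKO, 758 in the OT-I control and 171 in the OT-I CKO. It was 179 and 247 in the CD4SP control and CKO, and 2133, 2379 and 2266 in DP control, DP CKO and TCRβ-negative cells. The order of arrays by this list was thus close to that of the mitotic genes, except that the CD8SP and OT-I controls lay below the DP arrays. The 12 include Cd4, Cd8a and Cd8b1, the genes of the sorted surface proteins, so these sums also carry the sort itself. The summed level of 8 mature-stage markers (such as Ccr7, Klf2 and S1pr1) ran the other way, at 399 and 1053 in the CD8SP control and CKO and 319 and 986 in the OT-I control and CKO. It was 744 and 857 in the CD4SP control and CKO and between 50.9 and 90.8 in the DP and TCRβ-negative arrays.

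Ptcra, the pre-TCR alpha chain of immature thymocytes, was at 4.36 in the CD8SP control and 2.11 in the CD8SP CKO, and at 3.26 in the OT-I control and -1.85 in the OT-I CKO. Ptcra also stands in both the DP list and the list of 10 markers of DN (CD4- CD8-) and immature single-positive cells. The summed level of the latter list was 76.9 and 58.7 for CD8SP cells, control first, and 83.6 and 78.9 for OT-I CD8SP cells, within 29.7 to 97.8 over all arrays, and its marker Hes1 was well above background on 0 arrays. A sum is set mostly by the brightest markers. The mean log2 level of this list, control first, was 0.89 and -0.17 for OT-I CD8SP and 0.68 and 0.55 for CD8SP cells. It was -0.24 and 0.75 for DP and 0.13 and 0.12 for CD4SP cells. Of 10 erythroid markers 9 were on the array, Klf1 was well above background on 0 arrays, and the summed level was highest, 22.3, in the OT-I CKO, where the mitotic genes were lowest. Of 7 B cell markers, Pax5 and Ebf1 were well above background on 0 arrays, and the list summed to 3.20 to 14.7. The summed level was 43.6 to 145 for 8 myeloid and dendritic markers, 4.54 to 15.2 for 6 granulocyte markers, 0.342 to 8.17 for 6 NK and NKT markers, and 0.527 to 3.01 for 7 stromal and epithelial markers. Within pairs, the NK and NKT sum was 8.17 in the CD4SP control, with 5 of 6 markers well above background, and 0.411 in the CD4SP CKO, with 1, while it was 5.42 and 5.12 for CD8SP cells and 1.63 and 2.11 for OT-I CD8SP cells. The granulocyte sum was 15.2 and 4.76 for DP cells and 9.04 and 4.54 for CD4SP cells. The 3 gamma delta markers on the array summed to 44.6 in the OT-I control and 11.2 in the OT-I CKO, and to 2.77 to 35.8 elsewhere. The part of maturation stage or of other cells in the differences of the mitotic genes was not tested.

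**Figure D5:**
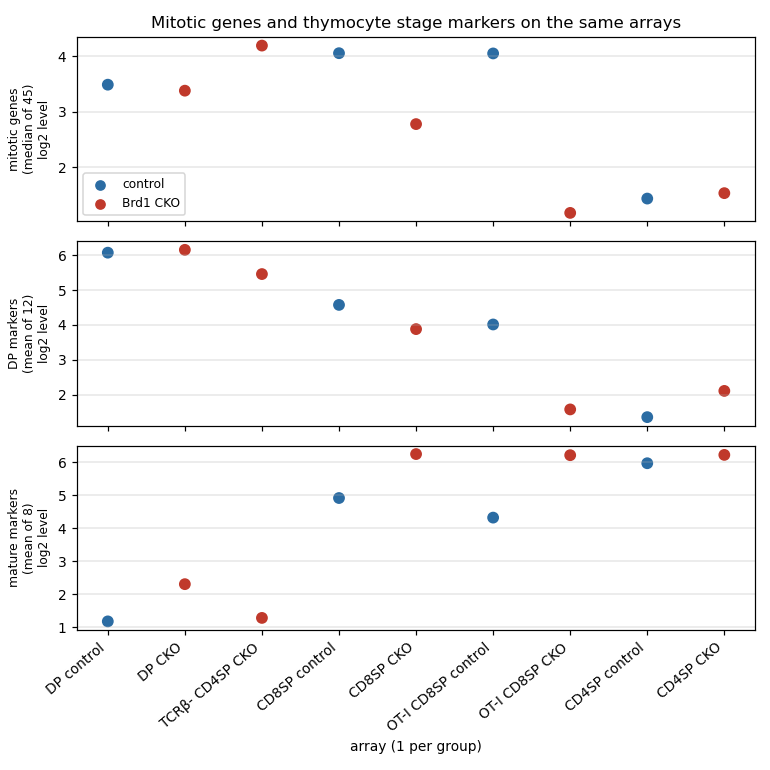
Median log2 level of the 45 mitotic genes (top), mean log2 level of 12 DP-stage markers (middle) and of 8 mature-stage markers (bottom) on each of the 9 arrays (horizontal axis), control in blue and CKO in red. In the CD8SP and OT-I pairs the CKO point is lower in the top and middle panels and higher in the bottom panel.

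In the group of cyclins, Cdk1 and mitotic kinases, which also holds the phosphatase Cdc25c, all 8 genes were lower in the CKO in the DP, CD8SP and OT-I pairs. Their medians were -0.24, -1.52 and -3.64, where those of all genes were 0.15, -0.12 and -0.09. In the CD4SP pair 5 of 7 were higher, with a median of 0.22. Ccnb2, a B-type cyclin that partners Cdk1, stood at 6.07 in DP control, 5.88 in DP CKO, 6.30 in TCRβ-negative CKO, 2.91 in CD4SP control, 3.36 in CD4SP CKO, 6.44 in CD8SP control, 4.95 in CD8SP CKO, 6.86 in OT-I control and 3.26 in OT-I CKO. The OT-I CKO was at the level of the CD4SP pair, whereas the CD8SP CKO lay between that level and the DP arrays. The OT-I difference of Ccnb2 was -3.60, or 12.1-fold lower, and the CD8SP difference -1.49, or 2.81-fold lower, while its fitted genotype difference was -1.21 (SE 0.66, limma adjusted p = 0.542).

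Cdc25c was at -0.21 in DP control, -0.86 in DP CKO, -0.15 in TCRβ-negative CKO, -0.13 in CD8SP control, -1.10 in CD8SP CKO and 0.52 in OT-I control. It was not well above background in the CD4SP pair and in the OT-I CKO, where its signal read -4.59. Cdc25c was therefore at least 10.3-fold lower in the OT-I CKO than in the OT-I control by a bound. Such a bound replaces the dim signal by the faintest one that passed the background test on that array. It is not a strict limit here or below, since on other arrays some signals that failed the test were brighter than that. Nek2, a centrosome kinase, was likewise not well above background in the OT-I CKO and at least 22.7-fold lower there. The OT-I differences of the other kinases and cyclins measured on both arrays were -3.74 for Plk1, -3.51 for Aurka, -3.64 for Ccna2, -3.63 for Ccnb1 and -3.60 for Cdk1. These 5 genes lay within a narrow range of each other.

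The 4 subunits of the chromosomal passenger complex, which carries Aurora B to centromeres and the midzone, had medians of 0.03, 0.27, -0.96 and -3.15 in the DP, CD4SP, CD8SP and OT-I pairs, over 4, 3, 4 and 4 genes. Birc5 (survivin), its centromere-targeting subunit, was at 7.29 in DP control, 7.10 in DP CKO, 7.63 in TCRβ-negative CKO, 4.47 in CD4SP control, 4.65 in CD4SP CKO, 7.74 in CD8SP control, 6.62 in CD8SP CKO, 8.03 in OT-I control and 4.43 in OT-I CKO. Incenp, the scaffold, was at 5.56 and 5.79 for DP, 6.28 for TCRβ-negative CD4SP, 3.45 and 3.72 for CD4SP, 6.17 and 5.39 for CD8SP and 6.51 and 3.82 for OT-I CD8SP cells. Both were lowest on the CD4SP pair and the OT-I CKO, and the OT-I difference was -3.61 for Birc5 and -2.69 for Incenp. Aurkb itself was a dim probe, well above background on 3 control arrays and the TCRβ-negative array and on none of the 4 paired CKO arrays. Its OT-I control level was -0.97, and it was at least 3.65-fold lower in the OT-I CKO.

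The 4 spindle checkpoint genes, which delay anaphase until all kinetochores are attached, had medians of -0.10, 0.71, -1.31 and -3.27 in the DP, CD4SP, CD8SP and OT-I pairs, over 4, 3, 3 and 4 genes. Mad2l1, the inhibitor of Cdc20, was at 4.22 in DP control, 4.01 in DP CKO, 4.58 in TCRβ-negative CKO, 2.53 in CD4SP control, 2.25 in CD4SP CKO, 5.22 in CD8SP control, 3.74 in CD8SP CKO, 5.51 in OT-I control and 2.26 in OT-I CKO. Bub1, a kinetochore kinase, was at 1.57 and 1.48 for DP, 2.44 for TCRβ-negative CD4SP, -1.21 and -0.50 for CD4SP, 2.14 and 1.24 for CD8SP and 2.50 and -0.93 for OT-I CD8SP cells. In both genes the OT-I CKO reached the range of the CD4SP pair, with OT-I differences of -3.24 for Mad2l1 and -3.43 for Bub1. Ttk, the kinase that starts checkpoint signalling, was well above background only in DP control (-2.42), DP CKO (-2.43), TCRβ-negative CKO (-1.57) and OT-I control (-2.20). It had the smallest adjusted p of the list in the genotype fit, 0.375 for a difference of -1.34 (SE 0.44, limma), which rests partly on signals not well above background, and it was at least 1.56-fold lower in the OT-I CKO.

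The kinetochore and centromere genes had pair medians of -0.11, 0.63, -1.16 and -3.11 over the 6 that could be compared. Spc25, a subunit of the Ndc80 complex that binds microtubules, was at 5.75 in DP control, 5.52 in DP CKO, 6.16 in TCRβ-negative CKO, 3.24 in CD4SP control, 3.29 in CD4SP CKO, 6.32 in CD8SP control, 4.82 in CD8SP CKO, 6.63 in OT-I control and 3.09 in OT-I CKO. Ndc80, another subunit of the same complex, was at 0.67 and 0.72 for DP, 0.97 for TCRβ-negative CD4SP, -1.92 and -0.94 for CD4SP, 0.90 and 0.47 for CD8SP and 0.81 and -1.39 for OT-I CD8SP cells. Subunits of this complex had unequal differences: Spc24, Spc25 and Nuf2 were lower in the CD8SP CKO by 3.06-fold, 2.84-fold and 2.71-fold and Ndc80 by 1.35-fold, and in the OT-I CKO by 11.9-fold, 11.6-fold and 11.2-fold and Ndc80 by 4.60-fold. No second named probe of Ndc80 was there to check its smaller differences. Cenpa, the centromeric histone H3 variant, had an OT-I difference of -1.92, the smallest of this group. Cenpe, a kinetochore motor, was at -0.60 in CD4SP control and 0.67 in CD4SP CKO, higher by 1.27, and 3.14 in OT-I control and 0.41 in OT-I CKO, lower by 6.63-fold.

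The 6 kinesins had pair medians of -0.08, 0.48, -1.09 and -3.32. Kif22, a motor on chromosome arms, was at 5.31 in DP control, 5.14 in DP CKO, 5.53 in TCRβ-negative CKO, 2.48 in CD4SP control, 2.73 in CD4SP CKO, 5.75 in CD8SP control, 4.45 in CD8SP CKO, 6.09 in OT-I control and 2.80 in OT-I CKO. Kif2c, a microtubule depolymerase at kinetochores whose promoter is printed above, was at 0.46 and 0.31 for DP, 0.81 for TCRβ-negative CD4SP, -2.63 and -1.94 for CD4SP, 0.96 and -0.83 for CD8SP and 1.28 and -3.07 for OT-I CD8SP cells. It was not well above background in CD4SP control and OT-I CKO, was 3.44-fold lower in the CD8SP CKO and at least 17.4-fold lower in the OT-I CKO. Kif23, which with Racgap1 forms centralspindlin, was at 1.17 and 1.81 for DP, 1.89 for TCRβ-negative CD4SP, 1.02 and 1.43 for CD4SP, 1.32 and 1.49 for CD8SP and 1.42 and 0.70 for OT-I CD8SP cells. Its arrays hardly separated by population, and its OT-I difference was -0.72, against -2.69 for its partner Racgap1. No second named probe of Kif23 was there to check these values. Kif4, a chromosome motor, was at -1.32 in the CD4SP CKO and not well above background in the CD4SP control, a difference of 1.30, and 10.2-fold lower in the OT-I CKO.

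The 5 spindle and cytokinesis genes had pair medians of -0.45, 0.52, -1.06 and -3.28. Racgap1 was at 4.54 in DP control, 4.44 in DP CKO, 4.86 in TCRβ-negative CKO, 2.14 in CD4SP control, 2.07 in CD4SP CKO, 4.75 in CD8SP control, 3.73 in CD8SP CKO, 5.15 in OT-I control and 2.47 in OT-I CKO. Ect2, the activator of RhoA at the division plane, was at 3.03 and 2.40 for DP, 3.35 for TCRβ-negative CD4SP, -0.13 and 0.24 for CD4SP, 3.05 and 1.99 for CD8SP and 3.38 and 0.09 for OT-I CD8SP cells, and was 9.72-fold lower in the OT-I CKO. The OT-I CKO level of both genes was near that of the CD4SP pair. Tpx2, which activates Aurora A on the spindle, was at 3.15 and 3.18 for DP, 3.77 for TCRβ-negative CD4SP, 0.16 and 0.81 for CD4SP, 3.44 and 2.46 for CD8SP and 3.91 and 0.48 for OT-I CD8SP cells, but its 2 probes gave OT-I differences of -3.43 and -0.98. Anln (anillin), a scaffold of the contractile ring, was at -2.34 in CD4SP control and -1.25 in CD4SP CKO, 2.14-fold higher, and was 8.89-fold lower in the OT-I CKO. Prc1, which bundles midzone microtubules, was 11.2-fold lower there.

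The APC/C genes divided into a pair that followed the group and a gene that did not. Cdc20, the APC/C activator of anaphase, was at 6.20 in DP control, 6.13 in DP CKO, 6.51 in TCRβ-negative CKO, 3.36 in CD4SP control, 3.83 in CD4SP CKO, 6.64 in CD8SP control, 5.29 in CD8SP CKO, 6.89 in OT-I control and 3.63 in OT-I CKO. Ube2c, its ubiquitin-conjugating enzyme, was at 5.10 and 5.15 for DP, 5.64 for TCRβ-negative CD4SP, 2.30 and 2.68 for CD4SP, 5.52 and 4.09 for CD8SP and 5.64 and 2.09 for OT-I CD8SP cells. The OT-I differences were -3.25 for Cdc20 and -3.55 for Ube2c. Pttg1 (securin), the inhibitor of separase that the APC/C degrades, was at 5.50 and 4.56 for DP, 4.51 for TCRβ-negative CD4SP, 4.29 and 4.71 for CD4SP, 5.84 and 5.09 for CD8SP and 5.02 and 4.59 for OT-I CD8SP cells. Its highest arrays were the CD8SP and DP controls, and its OT-I difference was -0.43, or -0.84 by its other probe, which was well above background on 2 arrays only. In the DP pair it had the lowest difference of the list, -0.94, and -2.13 by the other probe, and its 2 probes gave -0.76 and -2.25 in the CD8SP pair.

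Among the genes of chromosome structure the condensin subunits did not move as a block. Ncapd2, a regulatory subunit of condensin I, was at 6.38 in DP control, 6.27 in DP CKO, 6.59 in TCRβ-negative CKO, 4.18 in CD4SP control, 4.52 in CD4SP CKO, 6.75 in CD8SP control, 5.32 in CD8SP CKO, 7.21 in OT-I control and 4.58 in OT-I CKO. Top2a, which untangles sister DNA, was at 3.69 and 3.38 for DP, 4.22 for TCRβ-negative CD4SP, 1.48 and 1.41 for CD4SP, 3.75 and 2.78 for CD8SP and 3.91 and 0.61 for OT-I CD8SP cells, lowest in the OT-I CKO. Smc4, an ATPase shared by condensin I and II, was at 5.04 and 5.16 for DP, 5.82 for TCRβ-negative CD4SP, 3.79 and 5.12 for CD4SP, 4.78 and 5.35 for CD8SP and 4.67 and 4.44 for OT-I CD8SP cells. Smc4 was thus higher in the CKO in the CD4SP pair by 2.51-fold and in the CD8SP pair by 1.48-fold, and its OT-I difference of -0.23 was the smallest of the list. Smc4 had no second named probe to check these values. Its ATPase partner Smc2 was 2.85-fold lower in the OT-I CKO, whereas the condensin I subunits Ncapd2 and Ncaph were 6.16-fold and 9.59-fold lower and Ncapg at least 4.49-fold lower.

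Mki67, the proliferation marker Ki-67 that coats mitotic chromosomes, was at 5.18 in DP control, 4.95 in DP CKO, 5.95 in TCRβ-negative CKO, 1.69 in CD4SP control, 2.57 in CD4SP CKO, 4.85 in CD8SP control, 4.25 in CD8SP CKO, 5.16 in OT-I control and 2.26 in OT-I CKO. Foxm1, a transcription factor of G2/M genes, was at 1.76 and 1.79 for DP, 2.24 for TCRβ-negative CD4SP, -1.15 and -0.92 for CD4SP, 2.04 and 0.61 for CD8SP and 2.74 and -0.55 for OT-I CD8SP cells. In both genes the CD4SP pair and the OT-I CKO were the lowest 3 arrays. The OT-I difference was -2.90 for Mki67 and -3.30 for Foxm1, whose other detected probe gave -1.78, and the CD8SP differences were -0.60 and -1.43.

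Of the 45 genes, 13 had at least 2 probes detected on 2 or more arrays, and for 10 of them the probes differed by less than 0.5 in the OT-I pair. The exceptions were Tpx2 and Foxm1, above, and Cdk1, whose probes gave OT-I differences from -3.60 to -1.33 and CD8SP differences from -1.14 to 0.63. Pttg1 differed little between probes in the OT-I pair and more in the DP and CD8SP pairs, as above. In the CD4SP pair, probes of 5 of the 13 genes differed in sign: Ccnb1 at -0.10, 1.24 and 0.11, Mad2l1 at -0.29, 0.71 and 0.01, Tpx2 at 0.65 and -0.35, Pttg1 at 0.42 and -0.18, and Foxm1 at 0.23 and -0.04. Every detected probe of the 13 genes was lower in the OT-I CKO.

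The genes with the larger OT-I differences tended to have the larger CD8SP differences, by rank about as much as genes in general. Across the 44 genes Pearson's r was 0.66 and Spearman's rho 0.61 between these pairs, which share no array. Across all 20282 genes they were 0.54 and 0.59, and genes are not independent replicates. The 44 include Ttk, which was not well above background on either array of the CD8SP pair. The CD4SP minus DP difference of the controls and the OT-I pair difference had r = 0.70 and rho = 0.48 across the 44, against 0.30 and 0.21 across all genes. Kif23, Pttg1 and Smc4 lay at the small end of both.

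A wider list of 120 mitotic genes, named apart from the 45, had 119 genes on the array, of which 118 were tested; Anapc10 was detected on no array. Its median genotype difference was -0.53, with 13 of the 118 positive and none called in either direction by limma. Of the 118, 9 had an unadjusted p below 0.05, against 2216 of the 20282 genes tested. In the pairs, 1 was higher and 2 lower by more than 2-fold of 118 in DP cells, 7 and 1 of 115 in CD4SP cells, 1 and 39 of 117 in CD8SP cells, and 0 and 78 of 117 in OT-I cells, against the shares of all genes given above. The lowest fitted genotype differences were those of Wee1, the kinase that inhibits Cdk1, at -1.53 (SE 0.52), Melk, a kinase of dividing cells, at -1.49 (SE 0.66), and E2f8, a repressor of E2F targets, at -1.42 (SE 0.66). The highest were Haus3, an augmin subunit, at 0.57 (SE 0.32), Numa1, a spindle pole protein, at 0.53 (SE 0.19), and Anapc16, an APC/C subunit, at 0.29 (SE 0.19). Of the 118, Mad1l1, the checkpoint partner of Mad2l1, was called lower in CD4SP than in DP cells at -2.80 (SE 0.47, limma adjusted p = 0.0403) and Depdc1b at -1.90 (SE 0.32, adjusted p = 0.0387); with slide as a block neither was called, at an adjusted p of 0.0754 and 0.0663 (limma). Depdc1b was also called higher in TCRβ-negative than in CD4SP cells at 2.59 (SE 0.40, adjusted p = 0.0498), a call lost with slide as a block (limma adjusted p = 0.0976), with the percentile over probes detected on all arrays (0.0721) and with quantile normalization (0.0640).

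The subgroups of the wider list differed in the size of their differences. In the OT-I pair the median was -2.60 for 34 further kinetochore genes, with 26 lower by more than 2-fold, and -2.39 for 11 regulators of mitotic entry, with 9. It was -1.93 for 7 further motors and -1.78 for 24 genes of spindle assembly and cytokinesis. It was -1.01 for 21 APC/C subunits, inhibitors and related genes, -0.79 for 13 cohesin and condensin II genes and -0.74 for 7 transcription regulators of G2/M genes. In the CD8SP pair the medians of these subgroups ran from -1.03 for the kinetochore genes to -0.26 for cohesin and condensin II, and in the DP pair from -0.35 for the motors to 0.17 for the APC/C subgroup.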

How the data were processed

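The deposited scanner files of 9 one-colour (Cy3) Agilent arrays give an intensity for every spot. Per the file headers it was corrected for background and spatial trend by Agilent Feature Extraction 10.7.1.1, and arrays were not scaled to each other. The labels describe biotinylated cRNA, whereas the scanner files are of a Cy3 experiment, and the latter is followed here. The series table deposited by the authors is the same intensity over its array's 75th percentile; its scale was found by setting it against the scanner files (r = 1.0 on every array), and its columns have medians of 0.0618 to 0.0766.

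Replicate spots were averaged. Of 55681 probes, 144 with an outlier mark were dropped. Each array's log2 signals had their own 75th percentile subtracted. RefSeq accessions named 26715 probes with 20258 symbols; the 28822 others were grouped by their accession and not named. A gene took its probe of highest mean level, and counted as well above background where any of its probes did on the majority of its spots. Of 59305 spots per array, 0 were saturated, and the median SD between spots of a probe was 0.0696 to 0.0794. The number of arrays limits the precision.

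Population and genotype were fitted as additive terms by limma 3.58.1 (R 4.3.3) on 20282 genes detected on at least 2 arrays, two-sided, with Benjamini-Hochberg adjustment over all genes and a threshold of 0.05. The fit has 3 residual degrees of freedom (2.91 from the prior), and its p-values measure the spread between populations, since no group has a replicate. The interaction was fitted on 8 arrays, a test chosen with earlier results of these data known. Pairs of arrays were compared without a test, over genes detected on at least 1 of them; where 1 array was not well above background, the count past a 2-fold difference used a bound. On simulated arrays for the genotype fit, with 20282 genes, 94% of changes of 4 and 66% of changes of 2 (log2) were recovered. Recovery at the fitted median size of the mitotic genes, -1.12, was not tested. Recovery of a difference that varies between populations, as theirs did, was not tested either.

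The members and the lists were chosen with earlier results of these data known, and the bound, the grouping of unnamed probes and the detection rule were settled after first counts were seen, following an earlier description of these data. Levels on every array are given, in each role group, for the gene with the highest mean level and those with the lowest and highest fitted genotype difference, with other genes by range and counts, and single values of others where a result turns on them, chosen after their values were seen. Alternatives were normexp background correction, other scalings, probe averaging, other detection filters, the series table, each population left out, slide and a variance trend. The scanner files used here hold no mean spot signal, so normexp (offset 50) used the median spot signal. Promoter positions are from RefSeq for GRCm38.p6, a later build than that of the array design, and no position of a probe is given.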

Additional observations from a re-analysis of the deposited data

Results flagged for a closer look

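The direction of the pair differences was not the same in every population. The median of the mitotic genes was 0.37 in the CD4SP pair, against -0.14 for DP cells, -1.13 for CD8SP cells and -3.29 for OT-I CD8SP cells. Each pair is 1 array against 1 array, so these contrasts between pairs were not tested one by one; the interaction of genotype with CD8 class had a median of -2.35 and no calls (limma, Benjamini-Hochberg). For 3 genes the CKO was more than 2-fold higher in the CD4SP pair and more than 2-fold lower in another, a threshold chosen after the values were seen. Cenpe, the kinetochore motor, differed by 1.27 in the CD4SP pair and -2.73 in the OT-I pair. Kif4, the chromosome motor, differed by 1.30 in the CD4SP pair, where the control was not well above background, and by -3.35 in the OT-I pair. Anln, the contractile ring scaffold, differed by 1.09 in CD4SP cells, -1.58 in CD8SP cells and -3.15 in OT-I CD8SP cells. These differences were not tested.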

How the results depend on the processing

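No paired analysis was possible because each group has 1 array, so replicate numbers pair nothing beyond the population term of the fit, which already sets CKO against control within a population. Among the summary values, 282 kept their direction and stayed within 1.5 times the reported count or within a 1.5-fold change of the reported median difference, a margin wider than the median of the DP pair itself; the others were as follows. The median genotype difference of the mitotic genes, -1.12, was -0.38 without the OT-I pair and 0.12 on slide 1 alone, where 18 of 44 genes kept their sign. It was -1.39, -1.57 and -1.02 without the DP, CD4SP and CD8SP pairs. Slide as a block gives the same genotype differences as leaving out the CD8SP pair, so these are not separate checks of them. Genes lower by more than 2-fold in the DP pair, 0 as reported, were 2 with the percentile taken over probes detected on all arrays, and 1 each with quantile normalization, with the mean over probes and with no detection filter. Genes higher in the CD4SP pair were 1 in place of 4 with normexp, and those higher in the CD8SP pair 1 in place of 0 with no filter. The median of the OT-I pair was -2.66 with normexp. None of the mitotic genes was called in the genotype fit under any of these settings. Over all genes, calls in that fit, 8 higher and 49 lower, were 24 and 26 with normexp, 4 and 25 with quantile normalization, 1 and 31 with the detected-probe percentile, 12 and 60 with the mean over probes, 13 and 83 with no filter, 5 and 15 for genes detected on all arrays, 21 and 60 with the variance trend, 44 and 124 on slide 1 alone, 2 and 25 without OT-I, 0 and 2 without CD4SP, and 0 and 0 without DP, without CD8SP or with slide as a block. With slide as a block no gene was called either in CD8SP minus DP, CD8SP minus CD4SP or TCRβ-negative minus CD4SP (limma; 2704, 1783 and 2681 at an unadjusted p below 0.05), and of the mitotic genes 3 in place of 33 had such a p in CD8SP minus CD4SP. The causes of these shifts were not tested. The bound in the counts and the comparison of single arrays were chosen after seeing the data. Signal over background limits Aurkb, Ttk, Ncapg, Cdc25c and Cenpf.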
